A study of Homo sapiens with 12 samples.

Results

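MIA PaCa-2 is an established human pancreatic ductal adenocarcinoma line. The 6 libraries described here came from MIA PaCa-2 cells that carried a doxycycline (dox)-inducible short hairpin against GOT1 (iDox-shGOT1), 3 grown without dox (labelled control) and 3 given dox for 5 days (labelled GOT1 knockdown). They were chosen by their deposited titles and are 6 of the 12 libraries of the series. The other 6 are Pa-Tu-8902, another pancreatic cancer line with an inducible GOT1 hairpin, and serve here for the comparison between lines. The line had been made by lentiviral transduction and selection, both groups grew in DMEM with serum, and the untreated cells carried the hairpin without its inducer. The labels do not say which GOT1 hairpin was used, and no dox-treated library of a non-targeting hairpin was analysed here, so the response to dox and the response to loss of GOT1 cannot be told apart. Replicates 1 to 3 are separate libraries, and nothing in the labels says whether they are separate cultures, so p-values measure the spread between these libraries. RNA was poly(A)-selected and read with strand. The question is which transcripts follow loss of GOT1 in this line.

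GOT1 is the cytosolic aspartate aminotransferase. It exchanges an amino group between aspartate and α-ketoglutarate, making oxaloacetate and glutamate, and is one limb of the malate-aspartate shuttle, which carries reducing equivalents between cytosol and mitochondria. In pancreatic cancer cells it also feeds a route to NADPH, the cofactor that keeps glutathione reduced. Glutathione is the substrate with which GPX4 removes lipid peroxides, and when that removal fails in the presence of labile iron, cells die by ferroptosis.

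The 6 libraries held 26226537 to 34660453 estimated counts, with 19732 to 20519 genes at 1 count or more. Of 58721 genes in the table, 14589 reached 10 counts in 3 or more libraries and were tested, 179 of them with a third-highest count of exactly 10 and 181 others left out at 9. The library identity was checked against what is known of the line. CDKN2A, which MIA PaCa-2 has lost, had 0 to 2 counts in untreated cells, and CDH1 had 0 to 1, while VIM had 149884 to 166453. In untreated Pa-Tu-8902 libraries CDKN2A had 3209 to 4305 counts. In a table that accompanies the study, the counts deposited under MIA PaCa-2 stand in columns named for Pa-Tu-8902, and the deposited titles were followed here. Of the 9 ductal markers, KRT8 and KRT18 were abundant and KRT7, EPCAM, CDH1 and CFTR were near or at 0. Markers of other cell types were sparse: all 8 acinar and islet markers, 5 of 8 fibroblast, 4 of 7 leukocyte and 3 of 5 endothelial markers never exceeded 3 counts, and PTPRC, KDR and LUM were at 0 in untreated cells. COL1A2, a fibroblast marker, was present at 23300 to 28437 counts in untreated cells. The leukocyte markers CD68 and CD14 were present too, at 331 to 363 and 133 to 139 counts in untreated cells.

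Untreated replicate 2 stood apart from the other untreated libraries. Chi-square per degree of freedom was 27 and 25.3 against untreated replicates 1 and 3, compared with 6.34 between those and 2.99 to 6.19 between dox replicates. Its difference followed transcript length, with a median of +0.25 on the log2 scale in the shortest of 5 equal bins of genes and -0.19 in the longest (Spearman's rho -0.69 across 10995 genes of at least 100 normalized counts, which are not independent replicates). The median dox change followed length far less, from -0.09 to 0.05. The share of these genes called higher by the rule below still rose with length, from 2.23% in the shortest bin to 7.00% in the longest. The share called lower was 8.82% in the shortest and 7.87% in the longest. Without this library the biological coefficient of variation fell from 0.0781 to 0.0505, and 1583 of the 1751 genes called with 6 libraries were called in the same direction. List counts below include this library, and the count without it follows where it differs.

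**Figure D1:**
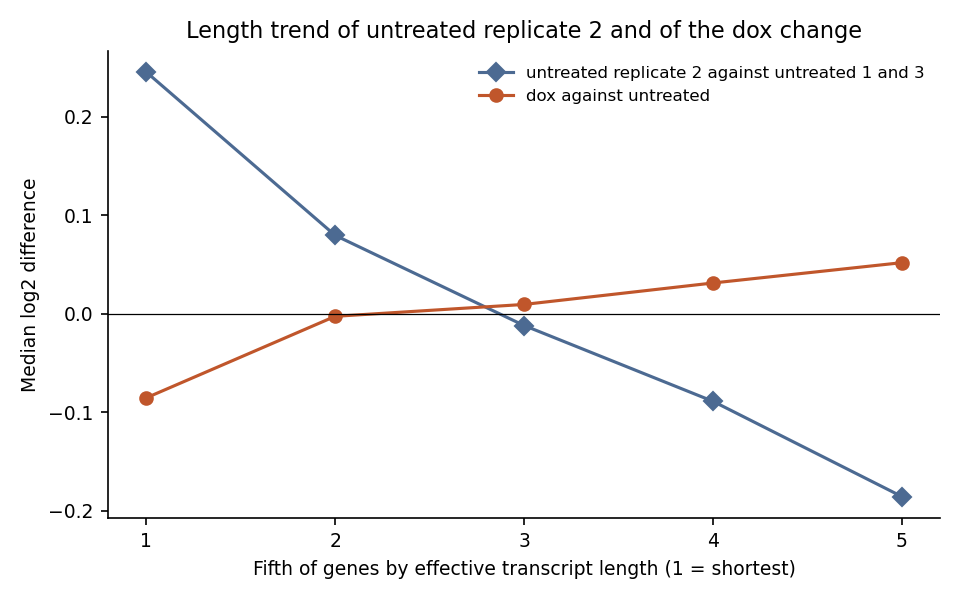
Median log2 difference (y axis) by effective transcript length in 5 equal bins (x axis, 1 is shortest), for genes with at least 100 normalized counts. Untreated replicate 2 runs from 0.25 to -0.19 relative to untreated replicates 1 and 3, while the dox change runs from -0.09 to 0.05.

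A gene was called when edgeR's quasi-likelihood test gave a Benjamini-Hochberg adjusted p below 0.01 and the fold change was at least 1.5. By this rule 12% of tested genes were called, 4.36% higher and 7.64% lower with dox. These shares are the background against which each gene list is read, and they are not adjusted for transcript length. The values of the untreated and dox libraries did not overlap for 52.9% of tested genes. Values are normalized counts (scaled by TMM to the mean library), fold changes are log2 dox against untreated ± SE (n = 3 against 3), and TPM is used where levels of different genes are compared. The SE was derived from the test, as the absolute log2 fold change over the square root of the quasi-likelihood F statistic. It is not the standard error of the printed library values.

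GOT1 was reduced in every dox library. In bulk RNA, fewer expressing cells and less RNA per cell cannot be told apart, here or for any gene below. It had 2075, 2341 and 2178 normalized counts in untreated replicates 1 to 3 and 69.3, 74.6 and 95.4 with dox, a log2 fold change of -4.76 ± 0.11 (adjusted p = 1.06e-09), and the groups were far apart. The gene lies at chr10:99396870-99430624 on the minus strand (GRCh38). Both of its transcripts with appreciable counts fell: GOT1-201, the main coding form, averaged 2104.6 counts untreated and 73.6 with dox, and GOT1-203, annotated as a processed transcript, averaged 89.8 and 5.43. Of 18 tested members of the malate-aspartate shuttle and aspartate list, SLC1A1, a glutamate and aspartate importer, was the other one called (log2 -1.37 ± 0.33, adjusted p = 0.006), with means of 44.8 normalized counts untreated and 16.9 with dox, and it lost its call under 6 of 14 alternatives, among them the omission of any dox library.

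Among the lists on amino acids, the ATF4 list held the most calls, and it is also the largest and shares members with the others. By share called lower it was close to the serine and one-carbon list (30.6% and 31.25%). ATF4 is the factor that the amino acid response turns on. Of 36 tested genes of this list, which holds ATF4 targets and regulators of the response, 1 rose and 11 fell, against backgrounds of 4.36% and 7.64% (1 and 9 without untreated replicate 2), with a median of -0.34 beside -0.01 over all tested genes. PHGDH, the first enzyme of serine synthesis, had 4456, 4862 and 4774 normalized counts in untreated replicates 1 to 3 and 2031, 2054 and 2048 with dox, with no overlap (log2 -1.20 ± 0.06, adjusted p = 1.21e-07). SLC7A11, the cystine importer that supplies glutathione synthesis, had 531, 493 and 585 normalized counts in untreated replicates 1 to 3 and 234, 149 and 203 with dox (log2 -1.45 ± 0.14, adjusted p = 1.25e-05). Every dox library was below every untreated one for both genes. XPOT, an exporter of tRNA, fell (log2 -1.01), GPT2, the mitochondrial alanine transaminase, had a log2 change of -0.87, and ALDH1L2, a mitochondrial folate enzyme, one of -2.44. SESN2, an inhibitor of mTORC1 signalling, was the member that rose (log2 0.63). Of 16 serine and one-carbon genes, 5 fell and none rose (4 and none without untreated replicate 2), and of 20 cytosolic aminoacyl-tRNA synthetases 2 fell, WARS and IARS. BCAT1, which transaminates branched-chain amino acids, had 90.9, 105 and 73.9 normalized counts in untreated replicates 1 to 3 and 13.2, 11.5 and 8.67 with dox. Its log2 fold change was -3.02 ± 0.26, and that call was lost when effective lengths were used as offsets.

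Of 20 genes of the ferroptosis defence and lipid peroxidation list, 3 fell and none rose, against 7.64% and 4.36% of all genes. The 3 were SLC7A11, TXNRD1 and SCD. TXNRD1, the cytosolic thioredoxin reductase, had 16154, 14421 and 15373 normalized counts in untreated replicates 1 to 3 and 6949.8, 6689.9 and 6874 with dox (log2 -1.16 ± 0.06, adjusted p = 2.00e-07), and the groups did not overlap. SCD, which makes monounsaturated fatty acids, had a log2 change of -0.87 ± 0.08, and ACLY, which makes cytosolic acetyl-CoA, one of -0.92 ± 0.07. Of 13 fatty acid synthesis genes 4 fell (5 without untreated replicate 2). In the glutathione, thioredoxin and NRF2 list 2 of 41 rose and 6 fell (2 and 5 without untreated replicate 2). SQSTM1, an autophagy receptor, rose (log2 0.76 ± 0.06), and GPX1, a selenium-dependent peroxidase, had a log2 change of -1.13 ± 0.11. ALDH3A1, an aldehyde dehydrogenase, had one of -2.24. None of 14 pentose phosphate and NADPH genes was called.

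Of 24 tested iron genes 2 rose and 2 fell (8.33% each way), against 4.36% and 7.64% of all genes. HMOX1, the enzyme that opens heme and frees its iron, had 375, 352 and 348 normalized counts in untreated replicates 1 to 3 and 1233, 1274 and 1196 with dox (log2 1.78 ± 0.07, adjusted p = 2.92e-08). The 3 dox libraries were all above the untreated ones. SLC39A8, a zinc, iron and manganese importer, had 996, 866 and 848 normalized counts in untreated replicates 1 to 3 and 2961, 2879 and 3080.3 with dox (log2 1.72 ± 0.07). The ferritin light chain gene FTL, which has processed pseudogenes that can share its reads, had 3295, 3301 and 3533 TPM in untreated replicates 1 to 3 and 1562, 1546 and 1554 with dox, with a log2 change of -1.19 ± 0.07 (adjusted p = 3.43e-07). FTH1, the heavy chain with which FTL builds the ferritin shell, had 1436, 1694 and 1539 TPM untreated and 1867, 1881 and 1861 with dox, where the groups do not overlap in TPM. In normalized counts they did overlap, with 23427, 31023 and 24717 in untreated replicates 1 to 3 and 29415, 29551 and 30563 with dox, and FTH1 was not called (log2 0.18 ± 0.09, adjusted p = 0.15). In TPM, FTL was above FTH1 in 3 of 3 untreated libraries and below it in 3 of 3 dox libraries, with means of 3376 and 1557 untreated and of 1554 and 1869.6 with dox. TFRC, the transferrin receptor (log2 0.33 ± 0.07), NCOA4, the ferritin autophagy receptor (0.11 ± 0.06), and IREB2, which binds iron-responsive elements (-0.42 ± 0.08), were not called, TFRC and IREB2 because their change was under 1.5-fold (adjusted p = 0.0032 and 0.0018). FLVCR1, a heme exporter, fell (log2 -0.72 ± 0.07), and that call was lost with effective lengths as offsets. The iron exporter gene SLC40A1 had 0 to 1 counts in untreated cells and was not tested.

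**Figure D2:**
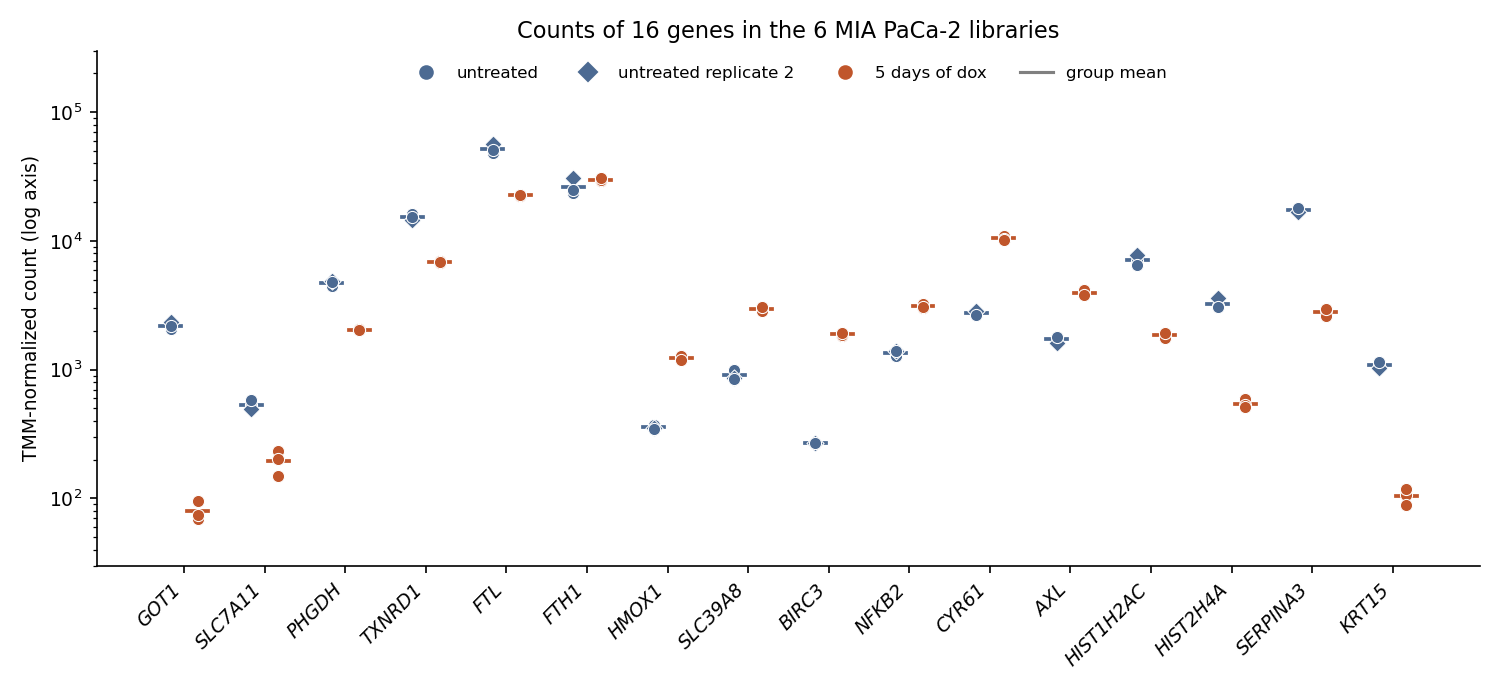
TMM-normalized counts (log axis) of 16 genes in each MIA PaCa-2 library, untreated in blue, dox in orange, with group means as bars and untreated replicate 2 as diamonds. GOT1 stands at 2075, 2341 and 2178 untreated and at 69.3, 74.6 and 95.4 with dox, and the FTL groups are separate while the FTH1 groups overlap on this scale.

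NF-κB factors are held in the cytosol by inhibitors such as IκBα and, once freed or, in the non-canonical branch, once processed, switch on their own inhibitors among many other genes. Of 32 tested genes of the NF-κB list 11 rose and none fell, against 4.36% and 7.64% of all genes (10 and none without untreated replicate 2), with a median of 0.31. By role in the list, 3 of 5 subunits, 3 of 7 inhibitors and 4 of 11 adaptors and kinases rose. Of the 9 tested genes listed as targets 1 rose, and their median was -0.03. BIRC3, a ubiquitin ligase and target of the pathway, had 266, 271 and 270.1 normalized counts in untreated replicates 1 to 3 and 1841, 1862 and 1934 with dox (log2 2.80 ± 0.07, adjusted p = 1.15e-09). NFKB2, the precursor of p52 in the non-canonical branch, had 1284, 1398 and 1397 normalized counts in untreated replicates 1 to 3 and 3232, 2989 and 3089.9 with dox (log2 1.19 ± 0.06). RELB, its partner, rose (log2 1.27 ± 0.10), as did MAP3K14, the kinase of the same branch (0.83 ± 0.07). NFKBIA, which encodes IκBα, had 2149, 2448 and 2198 normalized counts in untreated replicates 1 to 3 and 4384, 4285 and 4481 with dox (log2 0.95 ± 0.07). For these genes the groups did not overlap. TNFAIP3 (log2 1.42), a deubiquitinase that limits the pathway, and TRAF1 (1.13) rose as well. Of 13 tested chemokines and inflammatory cytokines, 2 cytokines rose and 1 chemokine fell (1 and 1 in the whole list without untreated replicate 2). CSF1 lost its call without untreated replicate 2.

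Promoter sequence is shown for the called members whose window held the letters of an NF-κB core. Within 250 bases before and 50 after the RefSeq start (GRCh38.p14), 2 of 9 called members with a promoter entry held the NF-κB core GGGNNTTCC on either strand. So did 7 of 25 tested members with one, 6.6% of 27305 promoters and 8.23% of all tested genes with a promoter entry. The matches are in capitals, and they are letters in a window, with no binding measured here. Only these letters were searched. Longer or otherwise spaced forms of the site were not, so a window without a match may still hold a site. The windows of NFKBIA, NFKB1 and NFKBIZ counted as without a match yet hold GGGAATTTCC on 1 strand. The letters TGATGNAAN, an element bound by ATF4, were in 0 of 8 called ATF4-list members with an entry and 5 of 28 tested ones. They were in 3.67% of all promoters and in 1.5% of those of tested genes. Searches for other factors also covered members with a promoter entry. The lysosomal E-box TCACGTGA was in 0 of 4 called and 8 of 39 tested lysosomal members, beside 1.99% of tested genes. The E2F site TTTCGCGC was in 0 of 4 called and 5 of 38 tested S-phase members, beside 1.1%. The CCAAT box was in 0 of 1 called and 27 of 39 tested G2/M members, beside 36.6%. In the glutathione, thioredoxin and NRF2 list, TGACNNNGC was in 1 of 5 called and 3 of 31 tested members, beside 15.1%. Counts over so few called members do not show that a list lacks a site. The windows of BIRC3 (chr11:102317234-102317533, plus strand) and TNFAIP3 (chr6:137867009-137867308, plus strand) read:
BIRC3: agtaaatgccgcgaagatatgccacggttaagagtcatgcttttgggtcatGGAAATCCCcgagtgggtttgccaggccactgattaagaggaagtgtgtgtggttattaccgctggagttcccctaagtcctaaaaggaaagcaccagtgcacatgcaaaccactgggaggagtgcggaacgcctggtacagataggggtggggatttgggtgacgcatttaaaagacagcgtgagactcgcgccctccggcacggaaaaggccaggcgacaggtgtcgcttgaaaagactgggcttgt
TNFAIP3: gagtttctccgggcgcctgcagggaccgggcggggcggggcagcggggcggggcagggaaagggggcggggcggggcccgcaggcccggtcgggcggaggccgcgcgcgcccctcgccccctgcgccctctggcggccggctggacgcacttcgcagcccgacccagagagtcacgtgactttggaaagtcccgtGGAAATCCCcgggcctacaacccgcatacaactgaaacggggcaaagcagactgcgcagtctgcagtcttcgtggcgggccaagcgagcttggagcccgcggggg

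Of 26 genes of the YAP-TEAD list, 18 targets and 8 pathway genes, 6 rose and none fell (4 and none without untreated replicate 2). The shares over all genes were 4.36% higher and 7.64% lower. The 6 were 4 targets and 2 pathway genes. YAP and its TEAD partners read cell shape and contact. CYR61, a secreted matricellular protein, had 2783, 2839 and 2649.8 normalized counts in untreated replicates 1 to 3 and 10898, 10388 and 10143 with dox (log2 1.93 ± 0.06, adjusted p = 6.63e-09). NUAK2, an AMPK-related kinase, had 50.1, 39.0 and 22.7 normalized counts in untreated replicates 1 to 3 and 328, 357 and 304 with dox (log2 3.13 ± 0.20), and AXL, a receptor tyrosine kinase, had 1779.9, 1609.5 and 1782 normalized counts in untreated replicates 1 to 3 and 3921, 4140.2 and 3787 with dox (log2 1.20 ± 0.07). CTGF, the best known target of the list, had a log2 value of -0.46 ± 0.19 and was not called. The letters GGAATG, a TEAD site, were in 14% of all promoter windows, in 10.5% of those of tested genes and in 6 of the 18 tested members that have one. Of 2 called members with a window, AXL had no match and NUAK2 had the letters (chr1:205321696-205321995, minus strand), while the window of CTGF, which was not called, held 3 matches:
NUAK2: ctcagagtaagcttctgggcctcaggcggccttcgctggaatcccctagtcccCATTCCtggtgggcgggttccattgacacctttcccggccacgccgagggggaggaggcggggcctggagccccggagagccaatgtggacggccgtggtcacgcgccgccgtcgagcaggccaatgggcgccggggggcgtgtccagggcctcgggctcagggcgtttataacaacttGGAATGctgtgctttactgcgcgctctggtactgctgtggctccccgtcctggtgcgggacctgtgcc

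Adhesion genes went in both directions, and their counts stand beside 4.36% higher and 7.64% lower over all genes. Of 13 tested integrins 4 rose and 3 fell. ITGA5 (log2 1.00 ± 0.08), ITGAV (0.63 ± 0.06), ITGB1 (0.69 ± 0.07) and ITGA10 (2.34 ± 0.12) rose, while ITGA3 (-1.69 ± 0.07), ITGB8 (-2.46 ± 0.14) and ITGB4 (-0.81 ± 0.09) fell. ITGB1, the common β chain of many integrins, went from 431 to 725 TPM, among the 5 largest rises in TPM. In the matrix list 6 of 27 rose and 3 fell, with COL5A2 at 7596, 6713 and 7657 normalized counts in untreated replicates 1 to 3 and 19937, 19115 and 17983 with dox (log2 1.38 ± 0.07) and COL1A2 at a log2 change of 0.70 ± 0.07. Of 18 epithelial keratin and junction genes 1 rose and 6 fell. KRT15, a basal keratin, had 1084, 1039 and 1145 normalized counts in untreated replicates 1 to 3 and 106, 89.5 and 119 with dox (log2 -3.37 ± 0.10, adjusted p = 5.71e-09), and KRT19 had 10179.5, 11699.7 and 10660.2 normalized counts in untreated replicates 1 to 3 and 3469, 3394 and 3399 with dox (log2 -1.66 ± 0.07). SERPINA3, a protease inhibitor of the acute phase, had 17107, 16739.6 and 18135 normalized counts in untreated replicates 1 to 3 and 2900.1, 2609 and 2979.7 with dox (log2 -2.61 ± 0.07).

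Of 52 tested replication-dependent histone genes 20 fell and 3 rose, against 7.64% and 4.36% of all genes (19 and 7 without untreated replicate 2), with a median of -0.41. Most transcripts of these genes end in a stem-loop without a poly(A) tail, so poly(A)-selected libraries hold their tailed forms. HIST1H2AC had 7043, 7720.0 and 6561 normalized counts in untreated replicates 1 to 3 and 1839, 1752 and 1941 with dox (log2 -1.95 ± 0.07), HIST1H1C, a linker histone, 12922, 18627 and 13175 normalized counts in untreated replicates 1 to 3 and 5046, 4678 and 4694 with dox (log2 -1.63 ± 0.12), and HIST1H4H 1368, 1389 and 1395 normalized counts in untreated replicates 1 to 3 and 293, 273 and 280.2 with dox (log2 -2.29 ± 0.07). Every dox value of these 3 was below the untreated ones. Copies that are nearly identical share reads. HIST2H3C was listed at 0 in dox replicate 1 and its copy HIST2H3A at 0 in untreated replicates 1 and 3, so the fold change of HIST2H3C alone is uncertain, and their summed counts gave a log2 ratio of means of -1.76, and those of HIST2H4A and HIST2H4B one of -2.53. HIST1H2AJ rose (log2 1.76 ± 0.20). AC243772.2, an antisense gene and the largest fall among called genes of at least 100 mean normalized counts (chr1:149785659-149793020, minus strand), had 219.8, 226 and 237 normalized counts in untreated replicates 1 to 3 and 5.5, 6.88 and 4.34 with dox, and it lies within the span annotated to HIST2H2BF on the same strand, which itself had a log2 change of -1.35 ± 0.14. Of 46 S-phase genes 4 fell (8.70%, and 3 genes without untreated replicate 2), a share near the 7.64% of all genes. Of 45 G2/M genes 1 fell, and none of 75 cytosolic ribosomal protein genes was called.

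Of 33 interferon-response genes 7 fell and none rose (8 and none without untreated replicate 2), against 7.64% and 4.36% of all genes. The median was -0.32. BST2, a membrane tether of budding virus, had 107, 139.6 and 98.6 normalized counts in untreated replicates 1 to 3 and 37.4, 32.1 and 29.5 with dox (log2 -1.80 ± 0.21), IFIT1, a sensor of foreign RNA, 495, 624 and 489 normalized counts in untreated replicates 1 to 3 and 297, 344 and 325 with dox (log2 -0.73 ± 0.11), and LGALS3BP 587, 493 and 578 normalized counts in untreated replicates 1 to 3 and 263, 274 and 252 with dox (log2 -1.07 ± 0.10). In each of the 3 the dox libraries lay below the untreated ones. The letters GAAANNGAA of the interferon-stimulated response element were in the windows of 5 of 5 called members with a promoter entry and of 18 of 25 tested members with one. They were in 8.29% of all promoters and in 6.19% of those of tested genes. Those of BST2 (chr19:17405581-17405880, minus strand) and IFIT1 (chr10:89392373-89392672, plus strand) read:
BST2: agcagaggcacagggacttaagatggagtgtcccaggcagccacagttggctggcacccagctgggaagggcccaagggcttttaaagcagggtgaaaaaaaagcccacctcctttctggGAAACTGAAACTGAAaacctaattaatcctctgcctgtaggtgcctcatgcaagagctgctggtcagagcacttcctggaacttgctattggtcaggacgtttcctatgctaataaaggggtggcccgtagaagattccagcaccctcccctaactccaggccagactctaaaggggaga
IFIT1: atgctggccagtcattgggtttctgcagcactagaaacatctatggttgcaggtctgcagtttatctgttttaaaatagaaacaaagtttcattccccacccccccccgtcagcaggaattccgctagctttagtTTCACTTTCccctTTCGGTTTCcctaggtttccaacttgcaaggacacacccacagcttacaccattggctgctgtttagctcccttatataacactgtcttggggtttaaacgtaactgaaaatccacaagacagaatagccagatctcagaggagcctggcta

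Lysosomal genes were called lower in 6 of 56 cases and higher in none (7 and none without untreated replicate 2), a share near the background of 7.64%. FUCA1, a fucosidase, had 212, 218 and 198 normalized counts in untreated replicates 1 to 3 and 35.2, 37.9 and 37.3 with dox (log2 -2.50 ± 0.14), and LIPA, the acid lipase, 8319.8, 7182 and 7747 normalized counts in untreated replicates 1 to 3 and 3686, 3342 and 3690.2 with dox (log2 -1.12 ± 0.07). Of 46 autophagy genes 5 rose and 1 fell (4 and none without untreated replicate 2), against 4.36% and 7.64% of all genes. GABARAPL1, an Atg8 homologue, had 357, 341 and 358 normalized counts in untreated replicates 1 to 3 and 832, 725 and 787 with dox (log2 1.15 ± 0.08). Of 74 nuclear respiratory chain genes 3 fell with 6 libraries and 1 without untreated replicate 2. That library had a median of +0.39 on the log2 scale over this list relative to the other 2 untreated ones.

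Growth factor signalling genes were called in both directions, and the counts here stand beside 4.36% higher and 7.64% lower over all genes. Of 26 receptor tyrosine kinases and ligands 3 rose and 5 fell. AREG, a ligand of EGFR, had 1100.0, 1389 and 1071 normalized counts in untreated replicates 1 to 3 and 284, 282 and 306 with dox (log2 -2.02 ± 0.11), and BTC, another EGFR ligand, had a log2 change of -1.37 ± 0.12, while EGFR itself rose (0.98 ± 0.09). The AREG groups did not overlap. In the ERK output list 3 of 22 rose and 2 fell. DUSP6, the phosphatase that feeds back on ERK, had 429, 344 and 337 normalized counts in untreated replicates 1 to 3 and 118, 123 and 124 with dox (log2 -1.61 ± 0.12), and DUSP5, a nuclear ERK phosphatase, rose (1.16 ± 0.12). EGR1 fell (-0.85 ± 0.07), and MYC rose (0.59 ± 0.06) with a change close to 1.5-fold that lost its call under 4 of 14 alternatives. Of 24 TGF-β and BMP response genes 5 rose and 4 fell. SMAD7, the inhibitory SMAD, had 19.5, 12.3 and 19.7 normalized counts in untreated replicates 1 to 3 and 99.0, 89.5 and 71.1 with dox (log2 2.31 ± 0.25), BAMBI, a decoy receptor, rose (1.76 ± 0.09), and ACVR1, a BMP type I receptor, fell (-1.55 ± 0.15). Of 36 plexins, semaphorins and ephrins 5 rose and 4 fell (6 and 6 without untreated replicate 2). PLXNA2 rose (2.29 ± 0.19), NRP2, a semaphorin and VEGF co-receptor, rose (2.12 ± 0.41), and PLXNB3 fell (-2.85 ± 0.28). CDK6, a kinase of G1 entry, had 1376, 1128 and 1306 normalized counts in untreated replicates 1 to 3 and 3379, 3467 and 3264 with dox (log2 1.41 ± 0.08), and CDKN2D, an inhibitor of that kinase, fell (-1.37 ± 0.10). Of 23 p53 targets 3 rose and 5 fell (2 and 5 without untreated replicate 2), with CCNG1 (-1.17 ± 0.07) and FDXR (-1.01 ± 0.09) lower and TNFRSF10B, a death receptor, higher (0.68 ± 0.06).

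Several of the largest changes lay outside the lists. NCEH1, a hydrolase of neutral cholesterol esters, had 1942, 1575 and 1768 normalized counts in untreated replicates 1 to 3 and 7418, 7274 and 7214 with dox (log2 2.05 ± 0.08), and ADGRG1, an adhesion G protein-coupled receptor, rose (2.06 ± 0.12). The non-coding LINC-PINT rose (1.84 ± 0.15). RAB31, a small GTPase of vesicle traffic, had 1614, 1322 and 1506 normalized counts in untreated replicates 1 to 3 and 281, 285 and 271 with dox (log2 -2.41 ± 0.09), and LEPR, the leptin receptor, fell (-2.42 ± 0.16). Measured in TPM, COTL1, which binds actin, went from a mean of 195 to 559 and ANXA1, a phospholipid-binding annexin, from 566 to 1215. MMP1, a collagenase, had 3575, 3785 and 3676 normalized counts in untreated replicates 1 to 3 and 957, 905 and 1033 with dox (log2 -1.93 ± 0.07). No dox library overlapped an untreated one for NCEH1, RAB31, COTL1, ANXA1 or MMP1.

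The remaining lists are read against 4.36% higher and 7.64% lower over all genes, and several of their shares lie near these. None of 18 V-ATPase subunits was called, 1 of 25 cholesterol synthesis genes fell, 1 of 74 mitochondrial ribosome genes fell and 1 of 13 mitochondrially encoded genes rose. Of 26 glycolysis genes 3 rose and 1 fell (2 and 1 without untreated replicate 2), of 19 hypoxia-inducible genes 4 rose and 2 fell, of 15 AP-1 and immediate-early genes 4 rose and 1 fell (4 and 2 without that library), and of 14 matrix metalloproteinases and inhibitors 1 rose and 3 fell (1 and 2). Of 16 amino acid transporters 2 rose and 4 fell, of 12 glutamine and transaminase genes 2 fell, of 25 chaperones and unfolded protein response genes 1 rose, of 23 FOXO factors and targets 2 rose and 2 fell, of 15 CDK inhibitors and G1 cyclins 1 rose and 1 fell, and of 12 mesenchymal genes 2 rose and 3 fell. Of 15 BCL2 family genes 2 fell (3 without untreated replicate 2), of 19 antigen presentation genes 1 rose and 1 fell (none and 1), and of 9 metallothionein and zinc genes 1 fell. ADM, a vasodilator peptide and hypoxia-inducible gene, rose (1.51 ± 0.27), as did FOSL2, an AP-1 subunit (1.40 ± 0.09).

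**Figure D3:**
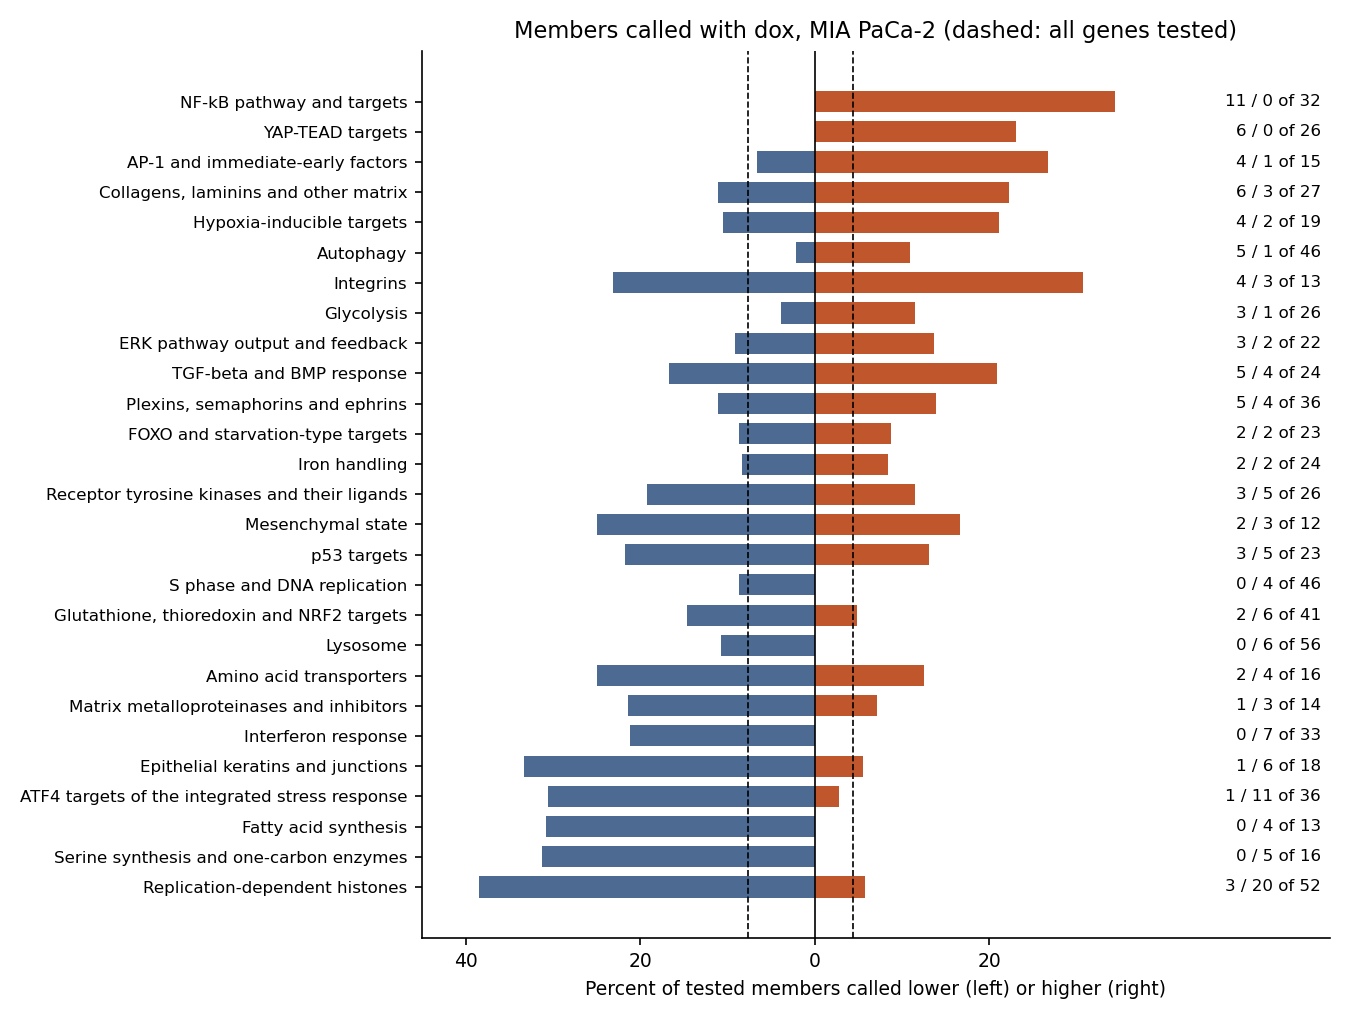
Percent of tested members called lower (left, blue) and higher (right, orange) in each list with at least 4 called members, with counts higher / lower of tested on the right. Dashed lines mark 7.64% lower and 4.36% higher over all tested genes. The marker lists and the gene families added after their values were seen are not drawn. Among the lists drawn, the NF-κB bar reaches farthest to the right and the histone bar farthest to the left.

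In Pa-Tu-8902, dox gave a different change for many of these genes. An interaction term in one fit of the 12 libraries found a differing change for 11.5% of genes tested, and for 567 of the 1751 genes called in MIA PaCa-2. Of the 567, 90 were called in the opposite direction in Pa-Tu-8902, 68 in the same direction, 388 were tested there and not called, and 21 were not tested. GOT1 fell in both (log2 -4.76 ± 0.11 here, -4.64 ± 0.09 in the other line, difference -0.13 ± 0.16, adjusted p = 0.62). Of the 23 called histone genes 15 differed between lines. HIST1H2AC had a log2 change of -1.95 ± 0.07 in MIA PaCa-2 against 1.43 ± 0.12 in the other line (difference -3.38 ± 0.12, adjusted p = 3.27e-11). All 7 called interferon genes and 9 of 11 called NF-κB genes differed too. BST2 had log2 changes of -1.80 ± 0.21 and 1.41 ± 0.12, and NFKB2 of 1.19 ± 0.06 and -0.43 ± 0.05. Among called genes of the ATF4 list 3 of 12 differed. LIPA (-1.12 ± 0.07 and 0.85 ± 0.05), AXL (1.20 ± 0.07 and -1.26 ± 0.07) and SERPINA3 (-2.61 ± 0.07 and 1.07 ± 0.15) were called in opposite directions. HMOX1 rose in both (log2 1.78 ± 0.07 and 2.92 ± 0.10), and the difference was past the threshold (-1.14 ± 0.13). Where Pa-Tu-8902 expresses little, the difference is not a comparison of responses: FHL1 had 0 to 12 and MDFIC 0 to 3 counts in its 6 libraries.

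**Figure D4:**
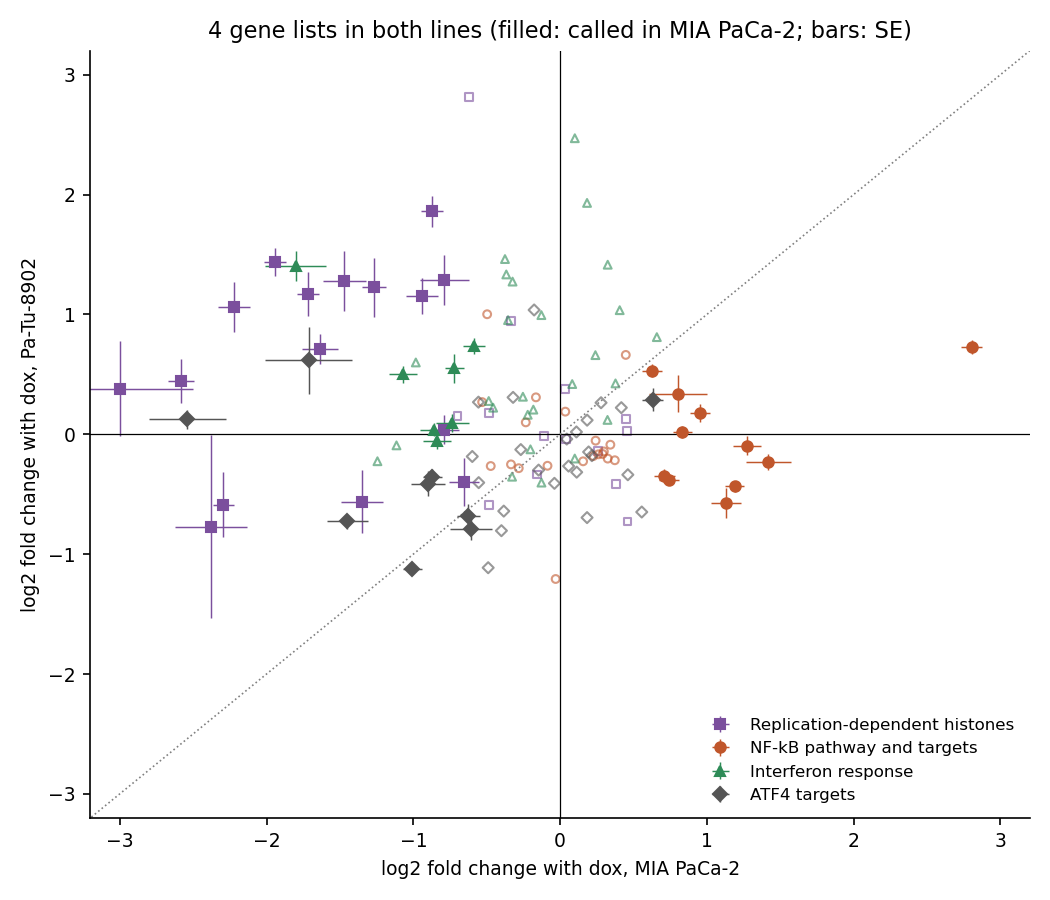
log2 fold change with dox in MIA PaCa-2 (x axis) and Pa-Tu-8902 (y axis) for members of 4 lists tested in both lines. Filled points are called in MIA PaCa-2 and carry SE bars, and the dotted line marks equal change. Of 30 histone genes tested in both lines, 16 lie in the upper left, below 0 in MIA PaCa-2 and above 0 in Pa-Tu-8902.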

How the data were processed

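Polyadenylated RNA of 12 cell line libraries was sequenced. Per the labels, Trimmomatic 0.39, STAR 2.5.2a and RSEM 1.3.1 were used on GRCh38. The authors deposited estimated counts (RSEM's expected counts per gene and transcript), which are not normalized and divide reads among similar genes. The deposited TPM are scaled by effective length and depth. Estimated counts were rounded, and edgeR 4.0.16 under R 4.3.3 gave the test (TMM, genes with 10 counts in 3 libraries, quasi-likelihood, Benjamini-Hochberg adjusted p below 0.01 and 1.5-fold), and the difference between lines with an interaction term over 12 libraries. The fit was run on simulated counts with a constant dispersion, without an outlying library or a length trend. That run cannot show whether the calls hold in these libraries. DESeq2 1.42.0, other filters, scalings and thresholds, effective lengths as offsets, a replicate block and omission of each library were alternatives, and removal of the length trend was added after seeing the data.

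The members and gene lists were chosen with earlier results of these data known. Named genes were GOT1, 7 iron genes, the 15 largest rises and 15 largest falls of called genes that averaged 100 normalized counts or more and did not overlap, up to 4 called members a list with the smallest p, the 5 largest rises and 5 largest falls in TPM, the 10 largest differences from Pa-Tu-8902, and genes farthest from the others in untreated replicate 2. Further list members, and the families among the closing observations, were named after their values were seen. Positions are from GENCODE v44 by Ensembl ID, and promoter windows from RefSeq for 10560 of 14589 tested genes. The labels and the study's methods give the dox concentration in different units.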

Additional observations from a re-analysis of the deposited data

Results flagged for a closer look

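The change with dox differed between MIA PaCa-2 and Pa-Tu-8902, by the interaction term of edgeR, for 567 of the genes called in MIA PaCa-2. Among named genes, the following were also called in the opposite direction in Pa-Tu-8902. The differences (log2, MIA PaCa-2 minus Pa-Tu-8902) were -3.69 for SERPINA3, -3.7 for RTN4RL1, -3.56 for AL353751.1, -3.38 for HIST1H2AC, -3.28 for HIST1H2BJ, -2.9 for HIST2H2BE, -2.35 for HIST1H1C, -2.56 for KRT81, -1.36 for KRT80, -2.0 for SEMA6B and -1.97 for LIPA. They were 3.17 for PLXNA2, 3.09 for LINC-PINT and 2.46 for AXL. Histone genes share sequence, and RTN4RL1 and AL353751.1 had low counts in untreated Pa-Tu-8902 libraries.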

How the results depend on the processing

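The counts of called genes (636 higher and 1115 lower) stayed within 1.5 times their size under DESeq2, other size factors, filters, one fit of 12 libraries, effective lengths as offsets, the length trend removed and a cutoff of 0.05. Without a limit on fold size they became 1835 and 2138. Leaving out one library gave 520 to 676 genes higher, 937 to 1211 lower, and 507 to 547 differing between lines. Leaving out dox replicate 2 gave the smallest counts, 520 and 937. The log2 fold change of GOT1 ranged from -4.931 to -4.674 with one library left out. Deviations from the group means of same-numbered libraries were little correlated (0.0652, -0.0935 and -0.051). Untreated replicate 2 stood apart and weighs on these deviations, so the values cannot show whether the replicate numbers pair libraries. With the replicate block 642 genes were higher and 1093 lower and no named gene lost its call. Of 152 named called genes 122 kept the call under each of 14 alternatives, a gene removed by a filter counting as lost. Effective lengths as offsets ended 14 calls, the most of any, and the cause was not tested. The spread rests on 3 libraries a group.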

Other observations

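Families not among the lists above, chosen after their values were seen, are described by counts and values. Over all tested genes 4.36% were called higher and 7.64% lower, and the groups did not overlap for 52.9%. Because these families were picked by their values, their counts cannot be weighed against those shares. Each of the 5 tested kallikrein-related peptidases fell, with log2 fold changes of -0.85 for KLK5, -1.75 for KLK6, -1.70 for KLK7, -2.32 for KLK8 and -0.92 for KLK10. Kallikreins are secreted serine proteases that sit in a cluster on chromosome 19. KLK6 had 30709, 31398 and 31250.2 normalized counts in untreated replicates 1 to 3 and 9672, 9053 and 9105 with dox, and KLK8 had 412, 499 and 398 normalized counts in untreated replicates 1 to 3 and 92.4, 88.4 and 82.4 with dox. The groups did not overlap for either gene.

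Of 10 tested S100 genes, small calcium-binding proteins, 6 fell and 1 rose. S100A2 had 2184, 3282 and 2312 normalized counts in untreated replicates 1 to 3 and 426, 379 and 406 with dox (log2 -2.68 ± 0.14), and S100A4 went from 4159.7 to 2629.8 TPM. S100A11 rose (log2 0.60 ± 0.06), a call lost without untreated replicate 1. Of 17 tested selenoproteins 4 fell, and of 10 tested serpins 5 fell.

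Among genes of at least 100 mean normalized counts, the 5 farthest above the other untreated libraries in untreated replicate 2 included the 4 table entries of RNA5-8SN2, a ribosomal RNA gene in several copies, whose values were identical. MAGED4B and TMEM189-UBE2V1 were among the 5 farthest below. None of these was called.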
